A study of Mus musculus with 5 samples.

Results

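Single cells of MMTV-PyMT organoids grown in Collagen I were divided by their level of Csn3 transcripts, and cells with abundant Csn3 were compared with cells in which none was counted. Csn3 encodes κ-casein, a milk protein. Only cells with few basal keratin transcripts entered, so that the comparison lies within the non-basal cells of the tumor organoids. The wells were thus chosen by their measured Csn3 and keratin counts. A sorted cell (1 well of a 384-well plate) was kept when it held over 2000 counts and under 8000 detected genes, was taken as non-basal when Krt5, Krt14 and Krt17 together stayed under 2 per 10000 counts of the well, and was then called Csn3-high at 10 or more Csn3 counts per 10000, or Csn3-negative at a Csn3 count of 0. Of 1255 kept wells in the series, 445 came from the Collagen I plates and 231 of these were non-basal. Among them 76 wells were Csn3-high (37 in replicate 1 and 39 in replicate 3) and 53 were Csn3-negative (30 and 23), while 102 intermediate wells (61 and 41) entered neither group.

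MMTV-PyMT organoids come from mouse mammary carcinomas in which the mouse mammary tumor virus promoter drives the polyoma middle T oncogene in mammary epithelium, so all groups here carry the same transgene. The organoids were kept in BME (basement membrane extract) with FGF2 and B27, isolated, and embedded for 5 days either in BME, where the labels give no invasion, or in fibrillar Collagen I, into which they invade as strands. Cells were sorted singly by FACS and sequenced by SORT-seq, a plate method that counts the 3′ ends of transcripts. The Collagen I plates are replicates 1 and 3 (replicate 2 was not analysed here), and the BME plates are replicates 1, 2 and 3. The labels do not say whether the replicates were separate cultures. The p-values therefore measure only how the difference between groups varied between plates, with that spread shared in part or in full over genes. The age of the donor mice was not given, and no sort separated luminal from basal cells.

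Caseins are the bulk proteins of milk, and κ-casein coats the casein micelle and keeps it in suspension. In the mammary gland they are made by luminal cells that differentiate into alveolar secretory cells under prolactin and STAT5, a step that also enlarges the endoplasmic reticulum (ER), switches on fatty acid and sterol synthesis for milk fat, and adds other secreted proteins. Tumor cells of luminal origin can keep parts of this program without lactation.

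Both groups carried epithelial transcripts. Krt8 and Krt18, the simple keratins of luminal cells, were at 1276 and 964 counts per 1000000 (CPM) in the summed Csn3-high wells of replicate 1 and at 1269 and 857 in the Csn3-negative wells, and in replicate 3 at 1119 and 963 against 1081 and 762. Cd14, a luminal progenitor marker, was at 583 and 690 CPM in the Csn3-high sums and at 465 and 546 in the Csn3-negative sums, and Krt19 was nearly absent (0 to 35.7 CPM over the non-basal groups). The basal keratins were low by selection, with Krt5 at 9.72 to 18.1 CPM in both groups against 1019 and 903 in the keratin-high wells. Trp63, the basal transcription factor, was not used for selection and was at 10.6 and 4.86 CPM in Csn3-high wells, 36.2 and 45.5 CPM in Csn3-negative wells and 69.2 and 60.2 CPM in keratin-high wells, from only 1 to 6 counts per non-basal sum. Of 12 fibroblast markers, 9 and 11 were in the tables of the Collagen I plates, and their summed level was 109 and 360 CPM in Csn3-high wells against 211 and 296 in Csn3-negative wells. Most of it was Col1a1 in replicate 1, whereas Col1a2 (117 and 159 CPM) and Dcn (63.2 and 68.2 CPM) were found mainly in replicate 3, in Csn3-high and Csn3-negative wells respectively. Markers of endothelial cells, immune cells, adipocytes and myoepithelium summed to at most 23.8 CPM per list in any non-basal group. With wells that carried such markers or no epithelial marker left out, 46 genes passed the test described below against 45 with all wells. These counts alone do not show whether the same genes passed.

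The groups differed in depth. Median counts per well were 6478 and 4763 in Csn3-high wells (replicates 1 and 3), 6926 and 4118 in intermediate wells, and 5573 and 2649 in Csn3-negative wells, so the Csn3-negative wells of replicate 3 were the shallowest. The sums held 283492 and 205818 counts for Csn3-high and 165790 and 87948 for Csn3-negative wells, and 1 well gave 15.1% of the Csn3-high sum of replicate 1. Across all non-basal wells the Csn3 level followed the depth of the well only weakly (Spearman rho 0.10 over 128 wells and 0.19 over 103). The 384 well barcodes were shared by both plates, 31 well positions were non-basal in both, and 5 were Csn3-high in both.

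Csn3 (chr5:87925579-87932665, plus strand, mm10) chose the groups, so its levels are given as a description. In Csn3-high wells it ranged from 10.2 to 64.8 per 10000 counts in replicate 1 (median 20.6) and from 10.4 to 129 in replicate 3 (median 19.8). Counted transcripts per Csn3-high well ran from 3 to 67.6 (median 14) and from 3 to 76.7 (median 9.01). The limit cut through a continuous range. The nearest wells outside it held 9.32, 9.78 and 9.96 per 10000 in replicate 1 and 9.45, 9.71 and 9.98 in replicate 3, and the nearest inside held 10.2, 10.4 and 10.5, and 10.4, 11.1 and 11.7. A well just inside the limit could rest on only 3 Csn3 counts. Summed over wells, Csn3 stood at 2297 and 2956 CPM in Csn3-high wells, 444 and 455 CPM in intermediate wells and 318 and 529 CPM in keratin-high wells.

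Csn3-high cells were a large share of the non-basal cells in the Collagen I plates and none was found in the BME plates at full depth. No plate held both matrices, so matrix and plate cannot be told apart in these shares. They made up 28.9% of the non-basal wells of replicate 1 (95% Clopper-Pearson interval 21.2% to 37.6%) and 37.9% of those of replicate 3 (28.5% to 48.0%), intervals that cover counting error only. In BME, 0 of 168, 0 of 127 and 0 of 151 non-basal wells reached the limit, with upper ends of the same 95% interval at 2.17%, 2.86% and 2.41%. Csn3 was still counted in 15.5%, 15.7% and 15.9% of the non-basal BME wells, against 76.6% and 77.7% in Collagen I, although BME wells were deeper. In the keratin-high wells, set beside them for comparison, Csn3 reached the same limit in 11.5% (12 of 104) and 18.2% (20 of 110) of wells in Collagen I and in 0 of 118, 0 of 132 and 0 of 114 in BME. With every well thinned to 2000 counts, Csn3 was counted in 56.2% and 67.0% of the non-basal wells and in 28.8% and 32.7% of the keratin-high wells of the Collagen I plates, and in 2.36% to 4.17% of the non-basal BME wells. In the thinned wells the limit of 10 per 10000, which is then 2 counts, was reached by 2 of 168, 2 of 127 and 0 of 151 non-basal BME wells (1.19%, 1.57% and 0%), and by 38.3% and 40.8% of those in Collagen I.

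**Figure D1:**
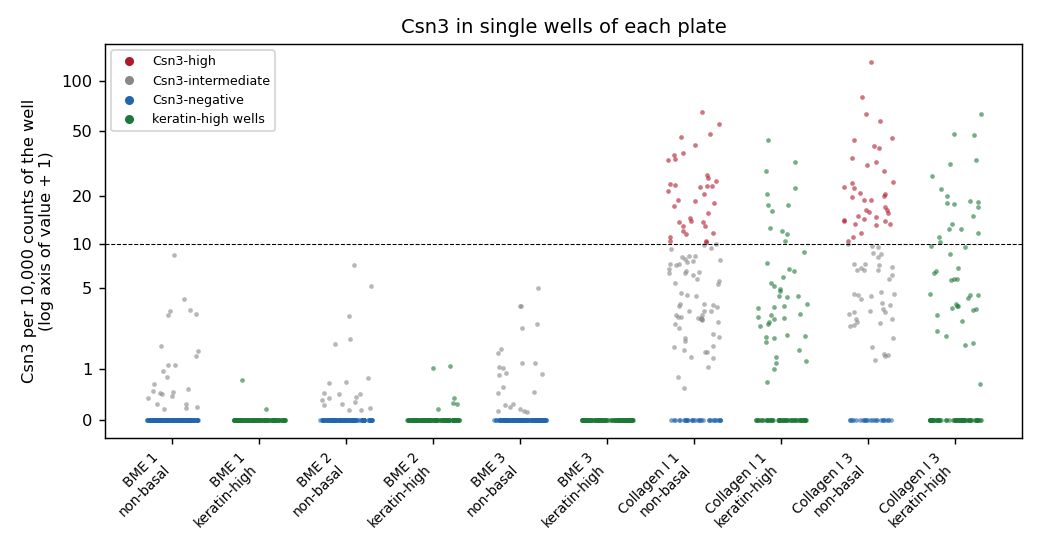
Csn3 per 10000 counts in every kept well (points) of each plate, on a log axis of the value plus 1, for non-basal and keratin-high wells; the dashed line marks 10 per 10000 and the colors the groups. Wells above the line are found in the Collagen I plates only, in both kinds of well, and the highest BME well lies at 8.40.

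The other milk proteins were too sparse in Collagen I for a test. Of the 8 other casein and whey genes that were searched, Csn1s1, Csn1s2b, Csn2 and Wfdc18 had any count in the non-basal wells, and none had enough counts to be tested. Csn1s1 (αS1-casein) gave 0 and 48.6 CPM in the Csn3-high sums and 84.4 and 0 CPM in the Csn3-negative sums of replicates 1 and 3, so it changed side between plates, and 60% of its counts in the Csn3-high wells of replicate 3 came from 1 well. Csn1s2b, another casein, was counted in Csn3-high wells alone, but only 2 times in replicate 1 and 1 time in replicate 3 (7.05 and 4.86 CPM, each count in a well of its own). Csn2 (β-casein) was counted 3 times in 1 Csn3-negative well and in no Csn3-high well of replicate 1. Wfdc18 gave 0 and 38.9 CPM against 12.1 and 45.5 CPM. At this depth no member of the list besides Csn3 could be told apart between the groups of the Collagen I plates.

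Across all genes, 45 of 3159 tested genes (1.42%) passed an adjusted p of 0.05 in edgeR's quasi-likelihood test on the 4 sums with the plate as a block, 29 higher (0.918%) and 16 lower (0.506%) in Csn3-high wells. Their levels in the 4 sums did not overlap for 28 of the 29 and 15 of the 16, against 36.4% of all tested genes, and all 45 had the same sign in both plates. Of all tested genes, 27.1% were positive in both plates. The 45 genes were called from these same plates, so the agreement is no separate support for them. The genes higher with Csn3 included Mgp and Spp1 (secreted), Hspa5 and Hsp90b1 (ER chaperones) and Scd1 (lipid synthesis), and the genes lower included Col17a1 (basal), Vim (mesenchymal) and Dsp (desmosome). These calls depended on the tool. With 4 sums the test leaned on a spread shared over genes, DESeq2 called 1 gene (Mgp), limma-voom 11, the fit without the plate block 4 (Mgp, Hspa5, Hsp90b1 and Fam101b), and leaving out the wells with over 10% mitochondrial counts left 0 (220 genes at an unadjusted p under 0.05, against 289, which is 9.15% of those tested), although the directions held. Few wells were left out by that limit, since 34 and 37 Csn3-high and 29 and 22 Csn3-negative wells stayed.

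**Figure D2:**
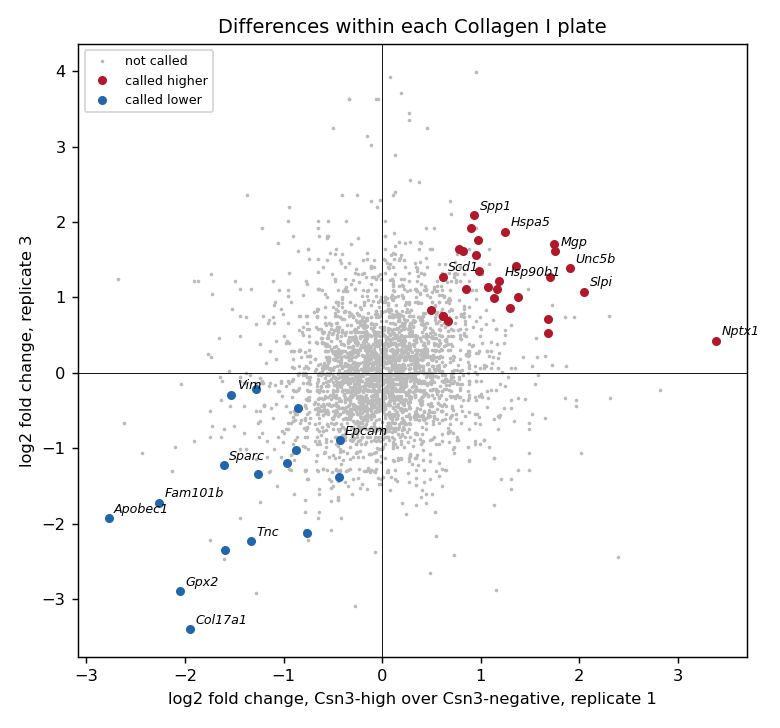
Log2 fold change of Csn3-high over Csn3-negative wells in replicate 1 (horizontal) and in replicate 3 (vertical) for the 3159 tested genes (points); red and blue points are the 29 genes higher and the 16 lower at an adjusted p under 0.05. The called genes lie at the upper right and the lower left, while Nptx1 (3.39 and 0.43) and Vim (-1.53 and -0.29) differed mostly in replicate 1.

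Mgp, Spp1 and Slpi, which encode secreted proteins, were higher with Csn3, while the other 7 tested genes of their list did not pass. Mgp (chr6:136872435-136875823, minus strand), a secreted inhibitor of calcification, stood at 1642 and 866 CPM in the Csn3-high sums and at 507 and 273 CPM in the Csn3-negative sums of replicates 1 and 3. Each Csn3-high sum was above both Csn3-negative sums, with a log2 fold change of 1.72 ± 0.20 (SE, adjusted p = 3.33e-14). Mgp passed in 17 of 18 alternative analyses, more than any other of the 45 genes. Spp1 (osteopontin, chr5:104435118-104441050), a phosphoprotein that milk also contains, was at 2381 and 2391 CPM against 1303 and 547 CPM, a log2 fold change of 1.39 ± 0.18 (adjusted p = 3.81e-11). The Csn3-negative level of Spp1 differed between the plates, and its difference was 0.93 in replicate 1 and 2.09 in replicate 3. Slpi, a secreted protease inhibitor of mucosal surfaces, was at 205 and 228 CPM against 48.2 and 102 CPM (log2 fold change 1.66 ± 0.36, adjusted p = 7.76e-04), from 8 and 9 counts in the Csn3-negative sums. These were 3 of the 10 tested members of a list of 24 secreted luminal and defence genes, with 0 lower and a median log2 fold change of 0.38, against -0.02 over all genes. The most abundant member, Trf (transferrin, an iron carrier of milk and serum), was at 13722 and 13501 CPM against 11631 and 8980 CPM and did not pass (log2 fold change 0.43 ± 0.21, adjusted p = 0.518), and neither did Lcn2 (0.43 ± 0.19, adjusted p = 0.428).

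Hspa5, Hsp90b1 and Pdia3, chaperones of the ER, were higher with Csn3, while the other 16 tested genes of their list did not pass. Hspa5 (BiP, chr2:34771970-34777547), the main ER member of the HSP70 family, was at 717 and 994 CPM in Csn3-high wells and at 314 and 261 CPM in Csn3-negative wells (log2 fold change 1.51 ± 0.21, adjusted p = 5.43e-10). Hsp90b1 (GRP94, chr10:86690209-86705509), the HSP90 of the ER, was at 858 and 817 CPM against 392 and 341 CPM (1.20 ± 0.20, adjusted p = 1.50e-06). Pdia3, a disulfide isomerase for glycoproteins, was at 307 and 238 CPM against 151 and 102 CPM (1.12 ± 0.30, adjusted p = 0.025). All 3 had non-overlapping sums, and the differences of Hsp90b1 in the plates were 1.19 and 1.21. In the Csn3-high sum of replicate 3, 1 well gave 28.1% of the Hspa5 counts and 23.9% of the Hsp90b1 counts. Of 28 listed genes of ER folding and the unfolded protein response, 19 were tested, 3 passed as higher and 0 as lower, and 16 had a positive log2 fold change with a median of 0.71 (0.51 in replicate 1 and 0.75 in replicate 3), against 48.1% positive over all genes. The lectin chaperones Calr and Canx had log2 fold changes of 0.48 ± 0.18 (adjusted p = 0.27) and 0.71 ± 0.28 (adjusted p = 0.283) and did not pass. Other genes, outside this list of folding genes, passed as well and were named after their values were seen: Rpn1, a subunit of the oligosaccharyltransferase (1.17 ± 0.32), Sec31a of the COPII coat (1.19 ± 0.34) and Cope of the COPI coat (1.31 ± 0.33).

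The promoters of these chaperone genes are shown because several hold the ER stress response element, the sequence through which ATF6 and partner factors act on them. Windows of 250 bases before to 50 after the start are RefSeq's on GRCm38.p6, 5′ to 3′ on the gene's strand, with each match to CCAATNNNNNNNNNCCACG on either strand in capitals. The motif was searched after the values of the genes were known.
Hspa5 (chr2:34771840-34772139, plus): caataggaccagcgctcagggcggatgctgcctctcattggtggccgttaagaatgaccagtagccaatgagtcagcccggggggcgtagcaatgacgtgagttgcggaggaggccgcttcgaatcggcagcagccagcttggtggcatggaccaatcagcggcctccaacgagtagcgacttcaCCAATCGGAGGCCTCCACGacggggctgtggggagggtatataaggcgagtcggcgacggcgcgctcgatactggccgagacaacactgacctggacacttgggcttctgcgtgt
Hsp90b1 (chr10:86705395-86705694, minus): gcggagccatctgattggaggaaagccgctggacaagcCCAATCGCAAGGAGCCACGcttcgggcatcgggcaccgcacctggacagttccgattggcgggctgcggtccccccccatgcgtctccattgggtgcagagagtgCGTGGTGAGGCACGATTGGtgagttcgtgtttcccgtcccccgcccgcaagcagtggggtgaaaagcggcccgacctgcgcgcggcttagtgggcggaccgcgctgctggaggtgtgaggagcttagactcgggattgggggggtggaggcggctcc
Calr (chr8:84846882-84847181, minus): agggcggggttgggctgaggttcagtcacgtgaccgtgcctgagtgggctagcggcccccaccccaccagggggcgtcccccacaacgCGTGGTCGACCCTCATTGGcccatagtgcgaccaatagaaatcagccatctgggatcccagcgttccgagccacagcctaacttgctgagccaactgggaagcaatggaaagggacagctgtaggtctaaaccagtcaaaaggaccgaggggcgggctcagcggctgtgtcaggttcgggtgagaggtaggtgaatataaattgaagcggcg

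The match began 65 bases before the start of Hspa5, 212 and 107 bases before that of Hsp90b1 and 162 bases before that of Calr, and the Pdia3 window held none. Of 25 listed ER genes with a promoter in the table, 8 held the motif (Calr, Canx, Creld2, Dnajc3, Hsp90b1, Hspa5, Pdia6 and Syvn1), against 0.119% of 32851 promoters. Of these 8, Hspa5 and Hsp90b1 passed the test. The STAT motif TTCNNNGAA, which reads the same on both strands, was in 4 of 7 casein and whey promoters (Csn1s1, Csn1s2a, Csn2 and Glycam1) and in 8.30% of all promoters. No promoter window was available for Csn3 itself, so it was not searched. These letters are a description of the windows and not of factor binding.

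Among genes of lipid synthesis and milk fat, Scd1 and Mfge8 were higher with Csn3 and the other 7 tested genes of the milk fat list did not pass. Scd1 (stearoyl-CoA desaturase), which makes monounsaturated fatty acids, was at 1858 and 1222 CPM in Csn3-high sums and at 1275 and 489 CPM in Csn3-negative sums, so the lower Csn3-high sum lay below the higher Csn3-negative sum although each plate showed the difference (log2 fold change 0.86 ± 0.18, adjusted p = 6.31e-04). Mfge8 (lactadherin), a protein of the milk fat globule membrane, was at 2541 and 2464 CPM against 1879 and 1354 CPM (0.65 ± 0.17, adjusted p = 0.0247). Fabp5, a fatty acid carrier outside the lists, was at 424 and 491 CPM against 199 and 239 CPM (1.09 ± 0.25, adjusted p = 2.52e-03). Scd1 and Mfge8 were 2 of 9 tested members of the milk fat list (20 genes), whose median log2 fold change was 0.38. Fasn (0.48 ± 0.26, adjusted p = 0.586) and Scd2 (0.29 ± 0.17, adjusted p = 0.655) did not pass, and Btn1a1 and Xdh, the defining genes of milk fat secretion, were not tested for lack of counts.

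In the cholesterol pathway 16 of 20 listed genes were tested, all 16 had a positive log2 fold change, 11 of them in both plates (68.8%, against 27.1% of all genes), and the median was 0.60. Only Insig1, the ER protein that holds back SREBP activation, passed, at 314 and 384 CPM against 181 and 171 CPM (0.97 ± 0.27, adjusted p = 0.0338). Fdps came close (0.78 ± 0.25, adjusted p = 0.0958), while Hmgcs1 (0.34 ± 0.22) had an adjusted p of 0.703. Also higher, outside the lists, were Acss2, which makes acetyl-CoA from acetate (1.64 ± 0.44), and Pmvk of the mevalonate pathway (1.17 ± 0.33).

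**Figure D3:**
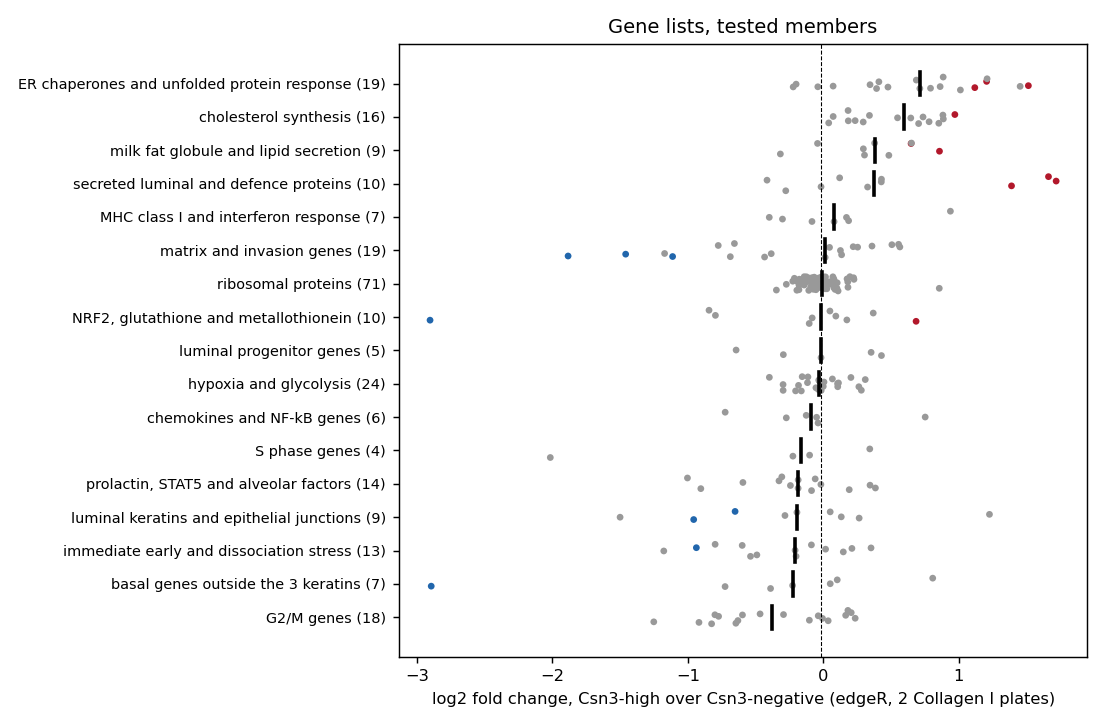
Log2 fold change of Csn3-high over Csn3-negative wells for the tested members (points, their number in brackets) of each list with at least 4 tested members; thick bars are medians, red and blue points passed at an adjusted p under 0.05, and the dashed line is the median of all genes. The ER chaperone (0.71) and cholesterol (0.60) lists have the highest medians, and G2/M genes the lowest (-0.38).

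Among the other genes higher with Csn3 were receptors, channels and signals. Unc5b, a netrin receptor, was at 293 and 223 CPM against 78.4 and 79.6 CPM (log2 fold change 1.78 ± 0.34, adjusted p = 8.53e-05), and Kcne3, a potassium channel subunit, at 222 and 243 CPM against 66.3 and 68.2 CPM (1.79 ± 0.35, adjusted p = 1.62e-04). The plates differed little in both genes. Nptx1, a secreted pentraxin best known from neurons, was at 222 and 190 CPM against 18.1 and 136 CPM, so its difference lay in replicate 1 (3.39, against 0.43 in replicate 3). Fth1, the ferritin heavy chain, was at 6244 and 6256 CPM against 4250 and 3623 CPM (0.68 ± 0.19, adjusted p = 0.0256). Inhbb, an activin subunit, and Emp1, an epithelial membrane protein, were higher by 0.68 each.

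Of the 16 genes lower in Csn3-high wells, 10 were higher in the keratin-high sum than in both other sums of each plate, against 14.3% of all tested genes. Col17a1 (chr19:47646344-47692094, minus strand), the hemidesmosomal collagen of basal cells, was at 17.6 and 4.86 CPM in Csn3-high sums, 84.4 and 114 CPM in Csn3-negative sums and 396 and 321 CPM in keratin-high sums (log2 fold change -2.89 ± 0.69, adjusted p = 4.66e-03), from 14 and 10 counts in the Csn3-negative wells. Sparc, a matrix glycoprotein, was at 120 and 180 CPM, 392 and 421 CPM, and 1033 and 913 CPM in the same order (-1.46 ± 0.27, adjusted p = 2.76e-05). Fam101b, an actin regulator, was at 45.9 and 34.0 CPM, 248 and 125 CPM, and 589 and 303 CPM (-2.21 ± 0.38, adjusted p = 4.95e-06). In all 3 the groups stood in the same order in both plates. Tnc (tenascin C, -1.88 ± 0.55), Apobec1, an RNA-editing enzyme (-2.70 ± 0.66), and Vim (vimentin, -1.11 ± 0.28) were also lower, Vim chiefly in replicate 1 (145 against 447 CPM, and 151 against 182 CPM in replicate 3). Trp63 had too few counts to be tested (values above), and the part of cells near the keratin limit was not tested beyond a stricter limit. With the keratin limit at 1 per 10000, Col17a1 still had a log2 fold change of -2.72 (adjusted p = 0.265), Fam101b had -1.93 (adjusted p = 0.0552), Sparc (-1.57) and Vim (-1.26) passed, and Apobec1, Pkp1 and Tnc had too few counts. By list, 1 of 7 tested basal genes (Col17a1), 3 of 19 matrix and invasion genes (Tnc, Sparc and Vim) and 2 of 9 luminal keratin and junction genes were lower, and none was higher. The lists as a whole were mixed. Log2 fold changes were positive for 3 of the 7 basal genes (list median -0.23) and 10 of the 19 matrix genes (0.01). The same held for 4 of the 9 luminal keratin and junction genes (-0.20). Fn1 (fibronectin), of the matrix list, was at 2462 and 2277 CPM against 1965 and 1423 CPM (0.51 ± 0.17, adjusted p = 0.145).

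Pkp1, Dsp and Epcam were lower as well, whereas the other 7 tested genes of the luminal keratin and junction list, Krt8 and Krt18 among them, did not pass. The desmosomal plaque genes Pkp1 (35.3 and 24.3 against 121 and 148 CPM, log2 fold change -2.06 ± 0.51) and Dsp (159 and 151 against 308 and 307 CPM, -0.96 ± 0.28) had adjusted p of 9.54e-03 and 0.0417. Epcam, the epithelial adhesion molecule, was at 494 and 515 against 700 and 945 CPM (-0.65 ± 0.19, adjusted p = 0.0361), and 43.5% of its Csn3-negative counts in replicate 3 came from 1 well. Cbr2, a carbonyl reductase, was at 526 and 861 against 1337 and 979 CPM (-0.80 ± 0.18, adjusted p = 1.51e-03), and the antioxidant enzyme Gpx2 at 10.6 and 9.72 against 60.3 and 114 CPM (-2.90 ± 0.74, adjusted p = 0.0119), on 10 Csn3-negative counts in each plate. Jun, an immediate early gene, was the only one of 13 tested dissociation stress genes to pass (-0.94 ± 0.26, adjusted p = 0.028).

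**Figure D4:**
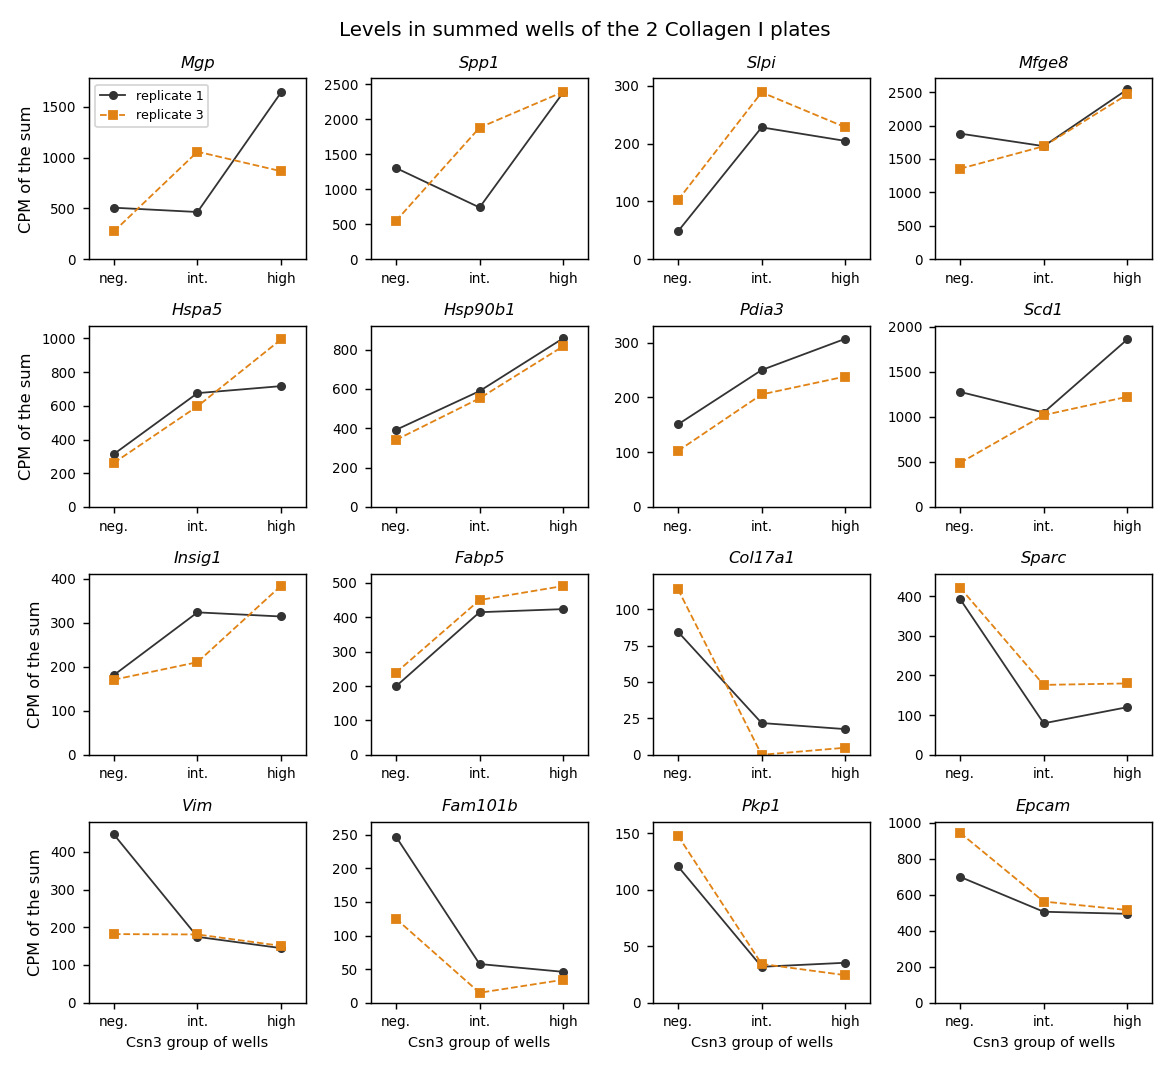
CPM of the summed Csn3-negative (neg.), intermediate (int.) and Csn3-high wells for 16 genes that passed the test, in replicate 1 (black) and replicate 3 (orange) of Collagen I, axes from 0. Hsp90b1 and Pdia3 climb in steps in both plates, whereas Col17a1, Sparc, Pkp1 and Epcam are already low in the intermediate wells.

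The intermediate wells, which the comparison did not use, stood between the groups in both plates for 19 of the 29 higher genes and for 3 of the 16 lower genes. Hsp90b1 was at 589 and 553 CPM there and Hspa5 at 675 and 597 CPM, between the groups in each plate. Mgp did not keep this order, with 464 CPM in replicate 1, below the Csn3-negative sum, and 1058 CPM in replicate 3, above the Csn3-high sum. Col17a1 was at 21.8 and 0 CPM and Sparc at 79.3 and 176 CPM, close to or below the Csn3-high sums.

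Programs that might be looked for beside κ-casein were not told apart. None of 14 tested genes of the prolactin, STAT5 and alveolar list passed (median log2 fold change -0.19). Nfib and Cebpb, factors of alveolar development, were at 1209 and 1074 against 1262 and 1160 CPM (-0.06 ± 0.17) and at 699 and 588 against 857 and 455 CPM (-0.02 ± 0.19). Prlr and Stat5a had at most 4 counts in any of the 4 sums. None of 5 luminal progenitor genes, 3 hormone-sensing genes, 6 chemokine and NF-κB genes, 4 S phase genes, 24 hypoxia and glycolysis genes, 7 MHC class I and interferon genes or 71 ribosomal protein genes passed, and the ribosomal median was -0.01. The G2/M list (18 tested, none passed) differed between the plates, with a median of -0.86 in replicate 1 and 0.26 in replicate 3. Wells with at least 2 counts of cell cycle genes were 35.1% and 30.8% of the Csn3-high wells, 23.3% and 30.4% of the Csn3-negative wells and 54.1% and 39.0% of the intermediate wells. This limit was not scaled to the depth of the well, in which the groups differed. The NRF2 and glutathione list had 1 gene higher (Fth1) and 1 lower (Gpx2) of 10, and the 3 tested fibroblast markers did not pass.

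As a description, the genes that followed Csn3 most closely from well to well were ranked by the lower of the Spearman correlations of the plates (128 and 103 non-basal wells, 2921 genes). Unc5b led with 0.39 and 0.36, then Scd1 (0.30 and 0.30), Lama4, a laminin chain (0.29 and 0.29), Fth1 (0.28 and 0.32), Mfge8 (0.28 and 0.35), Cope (0.28 and 0.28), Fabp5 (0.28 and 0.25), Pgf, a placental growth factor (0.24 and 0.27), Mgp (0.38 and 0.24) and Insig1 (0.23 and 0.23). All correlations were weak, the wells share a library and their depth, and the same wells enter the groups, so the ranking is not independent of the comparison. Of these 10 genes, 9 had passed the test and Pgf had not (0.66 ± 0.23, adjusted p = 0.169).

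The BME plates, whose wells had no part in the Collagen I groups, were divided by their own Csn3 counts. Since no BME well reached the limit, wells with any Csn3 count (26, 20 and 24) were set against wells with none (142, 107 and 127). The Csn3-detected wells were deeper (medians 41349, 52648 and 43509 counts, against 25803, 30949 and 30473), and their Csn3 level was far lower (133, 83.5 and 98.0 CPM). At least 2 cell cycle counts, a limit again not scaled to depth, were found in 95% to 96.2% of the Csn3-detected wells against 86.6% to 90.7%. Of 9864 tested genes 170 (1.72%) passed, 49 higher (0.497%) and 121 lower (1.23%), and without replicate 3 the count was 45. Of the 45 genes called in Collagen I, 44 were tested in BME and 33 had the same sign. That held for 14 of the 15 lower genes and for 19 of the 29 higher genes, while 5038 of all 9864 genes were positive in BME. Of the 44 genes, 10 passed with the same sign. These were 8 of the 15 tested lower genes (Apobec1, Cbr2, Col17a1, Dsp, Fam101b, Pkp1, Sparc and Vim) and 2 of the 29 higher genes (Hspa5 and Nptx1).

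Among the lower genes, Apobec1 was at 3.64, 11.2 and 12 CPM in Csn3-detected BME wells and at 34.2, 36.3 and 38.5 CPM in Csn3-negative BME wells (log2 fold change -2.02 ± 0.27, adjusted p = 1.07e-03), without overlap. Sparc was at 6.36, 26.2 and 16.6 against 37.2, 64.4 and 27.0 CPM (-1.39 ± 0.25, adjusted p = 9.02e-03). Hspa5 was at 792, 969 and 841 against 709, 612 and 710 CPM, a smaller difference than in Collagen I (0.36 ± 0.08, adjusted p = 0.0408). Nptx1 rested on replicate 1 (100, 2.81 and 8.32 against 6, 4.25 and 1.33 CPM). Mgp (748, 291 and 305 against 482, 361 and 635 CPM, -0.21 ± 0.20, adjusted p = 0.706) and Spp1 (-0.16 ± 0.10, adjusted p = 0.532) did not pass in BME. Csn1s1 was at 130, 97.5 and 225 against 36.9, 44.0 and 42.3 CPM (1.85 ± 0.18, adjusted p = 9.37e-05), so this casein was higher with Csn3 in BME. It was 1 of 2 tested members of the casein and whey list. The other had a log2 fold change of -1.24 and did not pass. In a joint fit of all 5 plates, the difference between Csn3-bearing and Csn3-negative wells itself differed between the matrices for 7 of 9557 genes (0.0732%), among them Hspa5, Slpi and Fabp5, which differed more in Collagen I. Matrix and plate cannot be told apart here either.

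**Figure D5:**
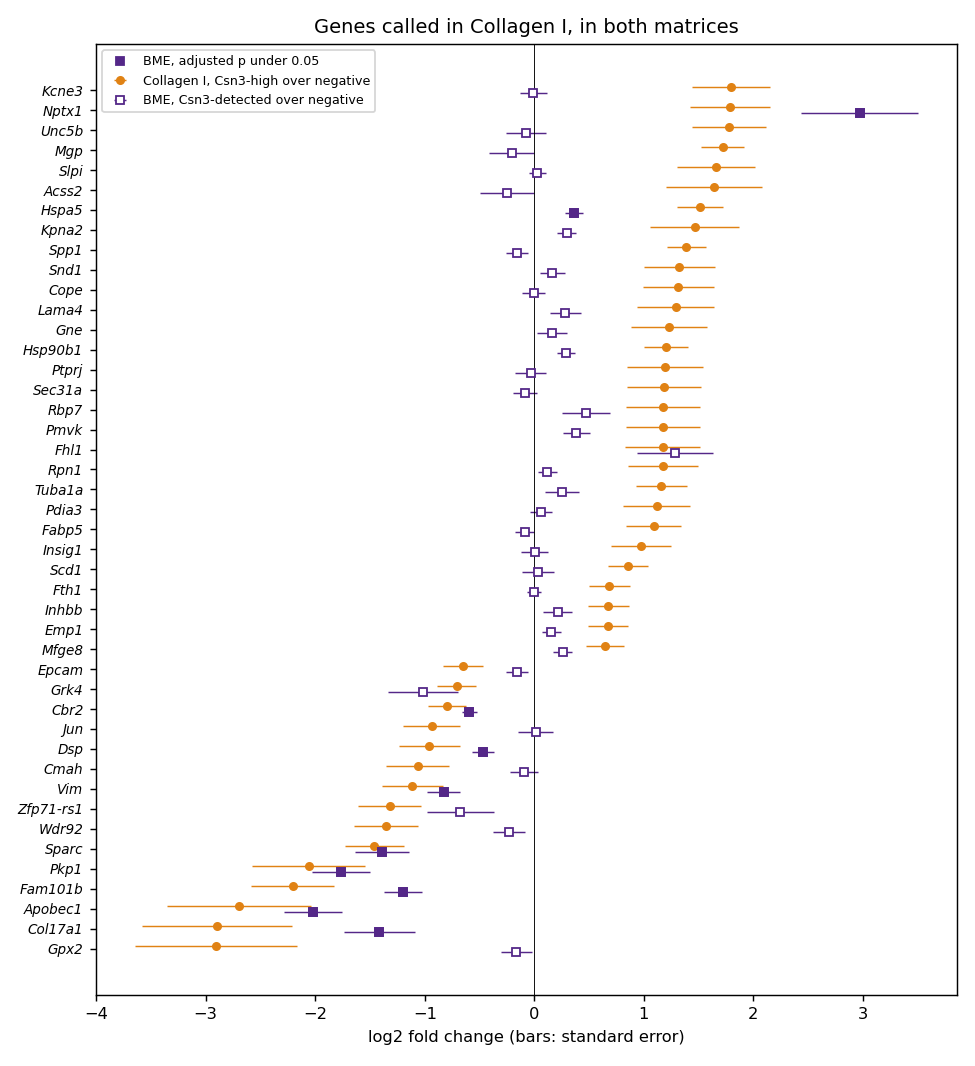
Log2 fold change with its standard error for the 44 genes called in Collagen I and tested in BME, for Csn3-high over Csn3-negative wells in Collagen I (orange) and Csn3-detected over Csn3-negative wells in BME (purple, filled where the adjusted p was under 0.05). Most of the higher genes lie near 0 in BME, while 8 of the 15 lower genes passed in both.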

How the data were processed

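Single cells of MMTV-PyMT organoids from 2 Collagen I plates and 3 BME plates, all of day 5, were analysed, with 384 wells per plate. The authors deposited expected counts, which are numbers of transcripts that they estimated for each gene in each well from the distinct UMIs, allowing for UMI saturation, after mapping with BWA to mm10 (no version was stated), and 83.1% to 95.4% of the nonzero values per plate are whole numbers (within 1e-06). They were not scaled between wells. ERCC spike-ins were dropped. Doublets were not called, and leaving out the top 5% of wells by counts was tried instead.

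The counts were summed over the wells of each plate and group and rounded. The 4 sums were compared in edgeR 4.0.16 (R 4.3.3) with TMM, filterByExpr, the plate as a block and the quasi-likelihood test, with Benjamini-Hochberg adjustment over all genes tested and a threshold of 0.05. The replicate number pairs the groups because both groups of a pair were sorted into the same plate. The prior degrees of freedom came out infinite, so the p-values rest on a spread shared by all genes. The standard error of a log2 fold change was taken as its size over the square root of F. Csn3, Krt5, Krt14 and Krt17 were left out of the test. In simulated sums of the Collagen I comparison (2883 genes, 200 changed) 36.8% of 2-fold and 95.1% of 4-fold changes were recovered, with 7 false calls. Every gene was simulated with the same dispersion (0.0123). The simulation could therefore not check the shared spread, and its false calls do not give the error rate of the real calls. CPM are per 1000000 counts of a sum.

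The members and the gene lists were chosen with earlier results of these data known. Named were the genes the rule used, the detected caseins and whey proteins, the 10 largest called differences in each direction with at least 50 CPM in a group mean, and up to 4 genes per list; genes called beyond these, and Trp63, Calr, Canx, Prlr, Stat5a, Pgf, Krt19, Igfbp5, Igfbp7 and Capn6, were named after their values were seen. The values of 1 gene of the cholesterol list are not reported here. The BME comparison fixed at a limit of 10 had no Csn3-high well, so detected wells were used. Alternatives included DESeq2 1.42.0 and limma-voom (limma 3.58.1). Positions are from GENCODE vM21 (GRCm38, the assembly of mm10).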

Additional observations from a re-analysis of the deposited data

Results flagged for a closer look

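The difference between Csn3-bearing and Csn3-negative wells was set against the matrix in one edgeR fit over all 5 plates, with wells of any Csn3 count against wells with none and the plate as a block. The test of the difference itself passed for 7 of 9557 genes (0.0732%) at an adjusted p under 0.05. Slpi gave a difference of 1.81 ± 0.30 in log2 fold change (Collagen I minus BME, adjusted p = 4.12e-03), with 1.85 in Collagen I and 0.04 in BME. Hspa5 gave 1.01 ± 0.21 (adjusted p = 0.0374), with 1.38 and 0.37, and Fabp5 1.17 ± 0.22 (adjusted p = 0.0114), with 1.09 and -0.08. These 3 genes are also among those higher in Csn3-high wells of Collagen I.

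The other differences came from BME. Ly6d, a surface antigen of luminal and other epithelial cells, gave 2.78 ± 0.41 (adjusted p = 6.28e-04) and was at 51.8, 33.7 and 33.3 CPM in Csn3-detected BME wells against 257, 202 and 241 CPM in Csn3-negative BME wells. Igfbp5 gave 1.18 ± 0.21 (adjusted p = 6.67e-03) and Igfbp7 1.26 ± 0.24 (adjusted p = 0.0114). Capn6 gave -3.71 ± 0.67 (adjusted p = 6.67e-03) and rested on the Csn3-detected wells of BME replicate 1, with 46.4 CPM there against 0.94 and 0 in replicates 2 and 3. The deeper Csn3-detected wells of BME differ from those of Collagen I in depth and in Csn3 level, and the part of either in these differences was not tested. Because no plate held both matrices, matrix and plate cannot be told apart in this fit.

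Csn3 also reached 10 per 10000 in 11.5% and 18.2% of the keratin-high wells of Collagen I replicates 1 and 3, which the comparison did not use, and in 0 of the keratin-high wells of the BME plates. The part of free RNA or doublets in these wells was not tested.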

How the results depend on the processing

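Against 45 genes in Collagen I, 1 passed with DESeq2 (24 at an unadjusted p under 0.05), 11 with limma-voom, 25 with library size only, 4 with no replicate block, 1 with wells thinned to 2000 counts, 18 with wells over 4000 counts, 0 with mitochondrial counts under 10% (220 at an unadjusted p under 0.05), 1 without the top 5% of wells by counts, 9 without cycling wells, 13 with the Csn3 limit at 20, 19 with the keratin limit at 1, 28 with 4 groups in the fit and 21 with bias-adjusted quasi-likelihood, which was added after seeing the data. RLE size factors (45), no filter (32), caseins left out (45), wells with other cell markers left out (46) and all wells under 10 as comparison (41, of which 10 were the same genes) stayed within 1.5 times. Over these 18 alternatives 786 of 787 values of the called genes kept their direction, 305 of them passing, and 16 genes passed in at least 9. Grk4 turned to 0.066 with all wells under 10 as comparison. Leaving out 1 plate leaves no residual degrees of freedom, so it gave values with no test, and 90 of 90 kept their direction. These values come from the same 2 plates that gave the calls, so their direction was largely set by the choice of genes. The share of Csn3-high wells moved from 28.9% to 38.3% (thinned) and 14.8% (limit 20) in replicate 1, and from 37.9% to 18.4% (limit 20) in replicate 3. Against 170 genes in BME, alternatives added after seeing the data gave 62 with DESeq2, 11 with no replicate block, 15 thinned, and 45 to 193 with 1 plate left out (lowest without replicate 3). Genes with under about 10 counts in a sum, such as Gpx2 and Col17a1, are limited by depth. The prior degrees of freedom were infinite in the main fit and with the keratin limit at 1. They were 5.17 with mitochondrial counts under 10% and 6.84 without the top 5% of wells. The cause of the changes in the number of genes was not tested.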
